A study of Mus musculus with 6 samples.

Results

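Neuropeptides are made as larger precursor proteins, which enter the secretory pathway, are cut by prohormone convertases, are often amidated, and are stored in dense-core vesicles. They are released mainly during strong or repeated firing and act on G protein-coupled receptors. In the hippocampus most precursor genes mark subtypes of GABAergic interneurons, while the opioid precursors Penk and Pdyn are also made by dentate granule cells and Cck also by many pyramidal cells. The set described here holds 10 precursor genes: Sst, Npy, Vip, Cort, Cck, Penk, Pdyn, Tac1, Tac2 and Crh. They were chosen by name from 25785 gene names, with the transcript of highest mean kept for each gene. All 10 passed the filter on low values, and 15717 genes passed it in all.

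Whole hippocampi of mice aged 30 postnatal days gave 3 sequencing libraries labelled PTCHD1 mutant and 3 labelled wild type. Both groups are of the strain the labels spell C57B1/6J, and both were taken as total RNA depleted of ribosomal RNA. Ptchd1 is an X-linked gene whose protein belongs to the patched family of membrane proteins. The labels give neither sex nor litter, nor the part of Ptchd1 that was altered, nor whether each library came from a separate animal. The p-values therefore reflect only how far these samples spread, which may be technical.

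Values are normalized read equivalents, meaning that the authors' normalized signal was taken as base coverage and scaled down by 42, the read length in bases that the values point to. The 6 libraries held 12450000 to 23750000 read equivalents before normalization. Ptchd1 averaged 154 ± 25.7 in the mutants and 374 ± 45.5 in wild type (SD, n = 3 each), with a log2 change of -1.28 ± 0.14 (SE) and an adjusted p of 0.0342 in limma. Some libraries carried markers of neighbouring tissue. Summed thalamic markers reached 6976 in mutant replicate 2, against 4339 to 4976 in the other 5 libraries. Summed choroid plexus markers stayed between 1164 and 2842 in the mutants, but reached 55080 and 20450 in wild-type replicates 1 and 3, with 803 in wild-type replicate 2. Markers of interneurons were well covered, with Gad1 at 5348 ± 440.1 in the mutants and 5299 ± 217 in wild type (SD, n = 3 each).

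Several precursor genes are textbook cases of control through a cAMP response element, the site bound by the activity-regulated factor CREB, and the Sst promoter is a classic example. Promoter sequences from RefSeq (GRCm38.p6) matched 8 of the 10 genes, and Penk and Crh were not among them. Each window runs from 250 bases before the start site to 50 after, and only bases before the start are printed. The whole upstream stretch of Sst is shown because Sst was the precursor whose mutant and wild-type libraries did not overlap. It lies at chr16:23890845-23891094 on the minus strand, and the capitals mark the full element, TGACGTCA, whose first base is at position -48.
Sst: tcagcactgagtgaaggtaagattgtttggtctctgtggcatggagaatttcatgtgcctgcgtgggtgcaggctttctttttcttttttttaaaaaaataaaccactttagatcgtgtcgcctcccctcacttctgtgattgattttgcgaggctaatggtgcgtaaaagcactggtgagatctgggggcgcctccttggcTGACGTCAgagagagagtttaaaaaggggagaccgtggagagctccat

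The same short element, or a near relative of it, was searched in the other promoters on both strands. The short form TGACG, which is also contained in the full element, was present in 5 of the 8 genes (Sst, Vip, Cort, Cck and Tac1) and in 20.91% of 32544 promoters of the same length. The full element was present in 1 of the 8 and in 1.8% of all promoters. In Cort, Cck and Tac1 the short form, read on the other strand, lay within the letters TGCGTCA, which 2.13% of promoters hold and which were searched for after the sequences had been seen. The stretches around the first match are set side by side below with the match in capitals, for Vip at chr10:5639123-5639159 on the plus strand, Cort at chr4:149126764-149126799 on the minus strand, Cck at chr9:121495721-121495759 on the minus strand and Tac1 at chr6:7554846-7554884 on the plus strand.
Vip: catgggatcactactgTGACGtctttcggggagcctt
Cort: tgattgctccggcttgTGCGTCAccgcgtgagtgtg
Cck: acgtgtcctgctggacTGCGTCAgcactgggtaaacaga
Tac1: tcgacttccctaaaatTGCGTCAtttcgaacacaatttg
The matches began at -79 in Vip, -20 in Cort, -49 in Cck and -199 in Tac1. A second short form in Tac1 began at -43. The Npy, Pdyn and Tac2 windows held none of these letters. These matches describe sequence, and binding was not measured.

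Per length of transcript, Cck and Sst were the most abundant of the 10, and Tac2, Crh and Cort the least. Cck stood at 2966 ± 191 read equivalents per kilobase in the mutants and 3001 ± 232 in wild type (SD, n = 3 each), above 98.8% of tested genes. Sst stood at 2629 ± 523 per kilobase in the mutants and 2047 ± 185 in wild type, and the ranges of Cck and Sst over the 6 libraries overlapped. Npy followed at 695 ± 187 in the mutants and 631 ± 121 in wild type, clear of its neighbours on both sides. Vip and Penk came next with overlapping ranges, at 237 and 183 per kilobase in the mutants and 239 and 164 in wild type. Tac1 averaged 102 per kilobase in the mutants and 99.2 in wild type, and Pdyn 50.8 in the mutants and 50.6 in wild type, each without overlap with the next gene. Cort, Crh and Tac2 shared the lowest range, where Tac2 averaged 27.6 per kilobase in the mutants and 15.2 in wild type and stood above 15.6% of tested genes. As a share of the 10 genes' summed level per kilobase, Sst made up 37.6% in the mutants and 32.5% in wild type. Cck made up 43.0% in the mutants and 47.7% in wild type. The Sst share was 43.1%, 34.3% and 35.5% in mutant replicates 1 to 3. It was 31.8%, 32.6% and 33.1% in wild-type replicates 1 to 3. The Cck share was 36.6%, 46.1% and 46.2% in the mutants, against 49.6%, 45.1% and 48.4% in wild type. Because these are parts of the same sum, a higher Sst share lowers the rest.

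**Figure D1:**
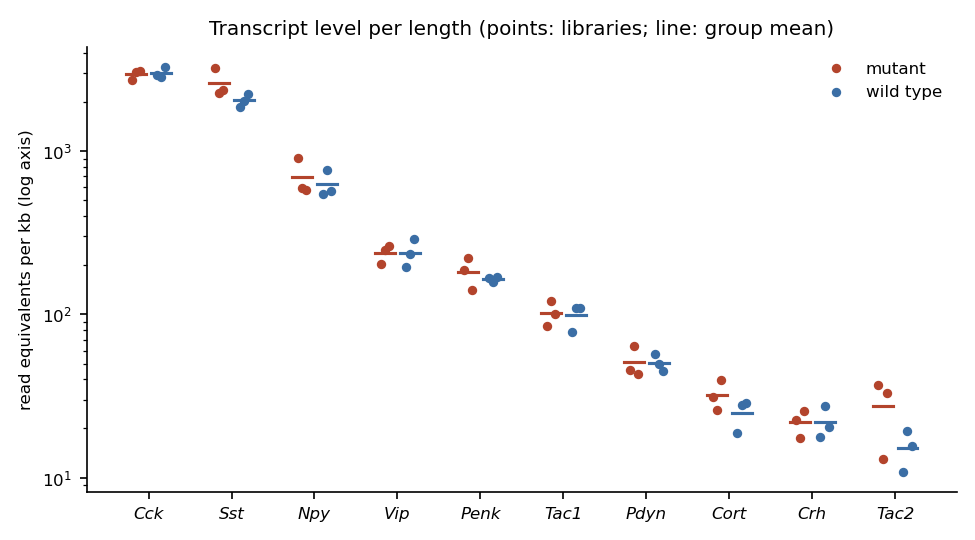
Read equivalents per kilobase of transcript on a log axis for the 10 precursors, ordered by their mean over all 6 libraries, with mutant libraries (red, left of each pair) and wild-type libraries (blue); lines are group means. Cck and Sst lie at 1865 or more in every library, and Cort, Crh and Tac2 at 39.7 or less.

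None of the 10 precursors differed between mutant and wild type past an adjusted p of 0.05, a threshold that 0.00636% of tested genes passed in limma. At an unadjusted p under 0.05, 1 of the 10, Sst, was higher in the mutants, against 9.01% of all tested genes in that direction, and 0 were lower, against 9.7%. Sst was also the 1 gene of the 10 with every mutant library above every wild-type library, a pattern seen in 12.3% of tested genes, and 0 of the 10 showed the opposite pattern, against 12% of tested genes. The unadjusted count was 0 without wild-type replicate 1, 2 (Sst and Tac2) without mutant replicate 2 and 2 (Sst and Penk) without mutant replicate 3. It was also 0 without the variance trend, without the filter on low values and with library quality weights. These shares are near the background, so the counts are not a result about precursors as a group. Of the 10, 7 had a log2 change above 0, against 46.8% of all tested genes, and Crh, among the 7, was at 0.0001. With single libraries left out, the number above 0 was lowest, at 5, without mutant replicate 2. It was highest, at 8, without mutant replicate 1 or without wild-type replicate 3. The median log2 change was 0.08 over the 10 genes and -0.02 over all genes. Over the 10 genes it was 0.15 without mutant replicate 3, 0.14 without wild-type replicate 2 and 0.13 without wild-type replicate 3. It was 0.06 without wild-type replicate 1, 0.07 without mutant replicate 2 and 0.11 without mutant replicate 1. With 3 libraries against 3, an exact permutation test of 1 gene cannot go below 0.1, the value Sst reached. In tissue measured whole, fewer cells of a type and less RNA per cell cannot be told apart.

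**Figure D2:**
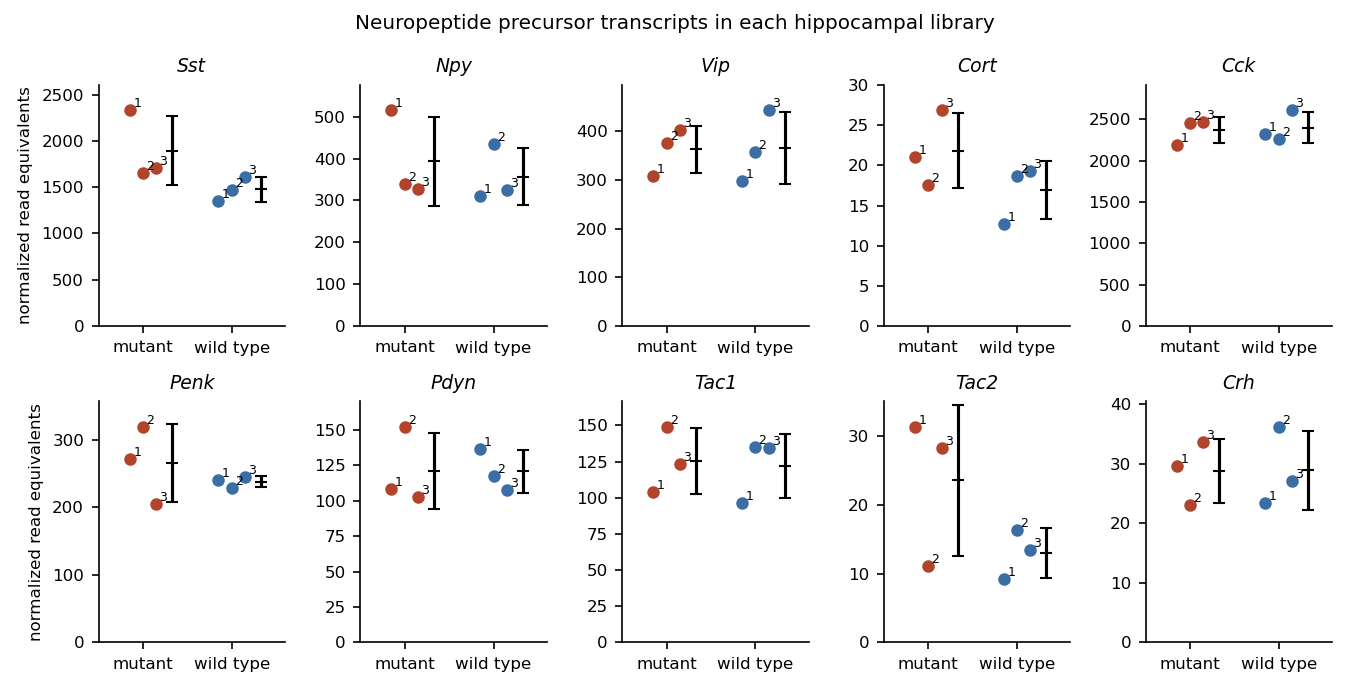
Normalized read equivalents of each precursor in every library, with mutant libraries (red) left of wild-type libraries (blue); small numbers are replicates, and black bars are group means with SD (n = 3 each). Sst is the panel in which the groups do not overlap, with mutant libraries from 1647 to 2329 and wild-type libraries from 1345 to 1611.

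Somatostatin, the product of Sst, is the peptide of dendrite-targeting interneurons such as the O-LM cells of CA1 and the hilar cells that innervate the dentate molecular layer. Sst measured 2329, 1647 and 1710 read equivalents in mutant replicates 1 to 3, against 1345, 1471 and 1611 in wild-type replicates 1 to 3. Mutant replicate 1 stood far above the rest, while mutant replicates 2 and 3 were just above the highest wild-type library. The means were 1895 ± 377 in the mutants and 1476 ± 133 in wild type (SD, n = 3 each), a ratio of 1.28 on these means. On the log2 scale the change was 0.35 ± 0.12 (SE), with a 95% interval from 0.08 to 0.62 and an adjusted p of 0.176 in limma. The change was 0.19 without mutant replicate 1 and 0.20 with library quality weights. Its unadjusted p in limma was 0.0163 in the main fit. That p was 0.060 without the variance trend, 0.091 without the filter on low values, 0.054 with library quality weights and 0.066 without wild-type replicate 1. The authors' deposited table gives Sst an unadjusted p of 0.0454, the 1 value of the 10 under 0.05 there, against 21.3% of tested genes. Adjusted over the tested genes, 0 of the 10 values from the authors' deposited table were under 0.05, against 7.8%.

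Neuropeptide Y, the product of Npy, is released by many of the same dendrite-targeting cells, by neurogliaform cells and, after seizures, by granule cells. Npy measured 515, 339 and 326 in mutant replicates 1 to 3, against 311, 436 and 324 in wild-type replicates 1 to 3. The groups overlapped, with mutant replicate 1 and wild-type replicate 2 both high. The log2 change was 0.12 ± 0.18 (SE; interval -0.27 to 0.52, adjusted p 0.741 in limma), and it was -0.09 without mutant replicate 1. Cortistatin, the product of Cort, resembles somatostatin and binds its receptors. Cort measured 21.1, 17.6 and 26.9 in the mutants, against 12.7, 18.7 and 19.3 in wild type, and the groups overlapped. Its change of 0.35 ± 0.29 (SE) was similar in size to that of Sst, but the interval ran from -0.28 to 0.98 and the adjusted p was 0.532 in limma. The change was 0.17 without wild-type replicate 1, 0.20 without mutant replicate 3 and 0.21 with library quality weights. Its libraries held at most 24.7 read equivalents before normalization.

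Vasoactive intestinal peptide, the product of Vip, marks interneurons that mainly inhibit other interneurons, and cholecystokinin, the product of Cck, marks a class of basket cells. Vip measured 309, 377 and 403 in mutant replicates 1 to 3, against 298, 357 and 443 in wild-type replicates 1 to 3. Both groups spread over nearly the same range, and the mean was 363 ± 48.2 in the mutants and 366 ± 73.3 in wild type (SD, n = 3 each). The interval of its log2 change ran from -0.33 to 0.32. Cck measured 2194, 2451 and 2465 in the mutants, against 2327, 2258 and 2608 in wild type, and again the groups interleaved. Its interval was the narrowest of the 10, from -0.18 to 0.15, which leaves room for a mutant level between 0.88 and 1.11 times wild type. Corticotropin-releasing hormone, the product of Crh, is made by hippocampal basket cells and takes part in stress responses. Crh measured 29.6, 23.0 and 33.7 in the mutants, against 23.3, 36.2 and 27.1 in wild type. The groups overlapped, with an interval from -0.56 to 0.56.

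The opioid precursors encode enkephalins (Penk) and dynorphins (Pdyn), and dynorphin is a transmitter of the mossy fibre pathway. Penk measured 272, 319 and 205 in mutant replicates 1 to 3, against 241, 228 and 244 in wild-type replicates 1 to 3. Its mutant libraries lay on both sides of the wild-type libraries, and the spread was 57.2 in the mutants and 8.42 in wild type (SD, n = 3 each). The log2 change of 0.13 ± 0.15 (SE) had an adjusted p of 0.656 in limma. A transcribed locus on the opposite strand, A830012C17Rik, overlaps a Penk exon, and the sources used here do not say whether the authors counted by strand. Pdyn measured 109, 152 and 103 in the mutants, against 136.9, 118 and 107 in wild type, with overlapping groups and an interval from -0.39 to 0.37. Of 13 markers of dentate granule cells, which make both peptides, 4 had a log2 change above 0, against 46.8% of all tested genes. Their median was -0.11, and 4 were lower in the mutants at an unadjusted p under 0.05, against 9.7% of all tested genes. The median was -0.01 without mutant replicate 1, with 6 of 13 above 0 and 1 lower at an unadjusted p under 0.05. It was -0.20 without mutant replicate 2 and -0.06 without wild-type replicate 1. Calb1, a calcium-binding protein of granule and CA1 pyramidal cells, averaged 2525 ± 454 in the mutants and 3054 ± 316 in wild type (SD, n = 3 each).

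The tachykinin precursors encode substance P and neurokinin A (Tac1) and neurokinin B (Tac2). Tac1 measured 104, 149 and 123 in mutant replicates 1 to 3, against 96.4, 134.9 and 134.7 in wild-type replicates 1 to 3, and the groups overlapped. Its log2 change was 0.04 ± 0.18 (SE). Tac2 measured 31.3, 11.1 and 28.2 in the mutants, against 9.20, 16.4 and 13.4 in wild type. Mutant replicates 1 and 3 were above all wild-type libraries, and mutant replicate 2 was below wild-type replicates 2 and 3. The mean was 23.5 ± 10.9 in the mutants and 12.98 ± 3.61 in wild type (SD, n = 3 each). Its log2 change, the largest of the 10, was 0.72 ± 0.40 (SE) with an interval from -0.16 to 1.602 and an adjusted p of 0.351 in limma. It was 1.17 without mutant replicate 2, with an adjusted p of 0.223, 0.46 without mutant replicate 1, 0.53 without mutant replicate 3, 0.51 without wild-type replicate 1 and 0.38 with library quality weights. The libraries held 9.38 to 33.8 read equivalents of Tac2 before normalization.

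Mutant replicate 2, the library with the highest summed thalamic markers, had the highest level of Penk, Pdyn and Tac1 among the 6 libraries and the lowest mutant level of Tac2. Of the 11 thalamic markers, 5 were highest in that library and 6 in other libraries. Shox2, a transcription factor of thalamic neurons, was at 237 there and at most 4.58 in the other 5, and Tcf7l2 at 415 there and at most 69.4 elsewhere, both named after their values were seen. Against these, Prkcd, also named after its values were seen, was at 355 there and at 515 in wild-type replicate 1, and Ntng1 at 1003 there and at 1579 in mutant replicate 1. Of the 10 medial habenula markers, 5 were highest in mutant replicate 2 and 5 elsewhere, and the defining markers Pou4f1, Chrnb4 and Chat were under the filter. Without mutant replicate 2 the log2 change was -0.01 for Penk, -0.18 for Pdyn and -0.09 for Tac1. Whether neighbouring tissue contributed to these 3 peptides was not tested.

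Wild-type replicate 1, the library with the highest summed choroid plexus markers (55080), was the lowest of the 6 libraries for 6 of the 10 precursors. These were Sst, Npy, Vip, Cort, Tac1 and Tac2. The same library was lowest for 5 of 8 general neuronal markers. Wild-type replicate 3, also rich in choroid plexus markers (20450), was lowest for 0 of the 10 precursors and highest for 2, Vip and Cck. Without wild-type replicate 1 the log2 change was 0.28 for Sst, 0.03 for Npy and -0.14 for Vip. It was 0.17 for Cort, 0.51 for Tac2 and -0.12 for Tac1. The part of choroid plexus tissue in these levels was not tested.

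The neocortical markers Cux2 and Tbr1, also named after their values were seen, averaged 495 and 908 in the mutants and 302 and 740.0 in wild type. Over the whole list, 11 of 11 neocortical markers had a log2 change above 0 with a median of 0.30, against 46.8% of all tested genes above 0, and their sum was 8845 to 9761 in the mutants and 7962 to 8688 in wild type. The median was 0.15 without mutant replicate 1 and 0.18 without wild-type replicate 2. Sst, Npy, Vip and Cck are also made in neocortex. The part of neocortical tissue in the level of Sst was not tested.

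**Figure D3:**
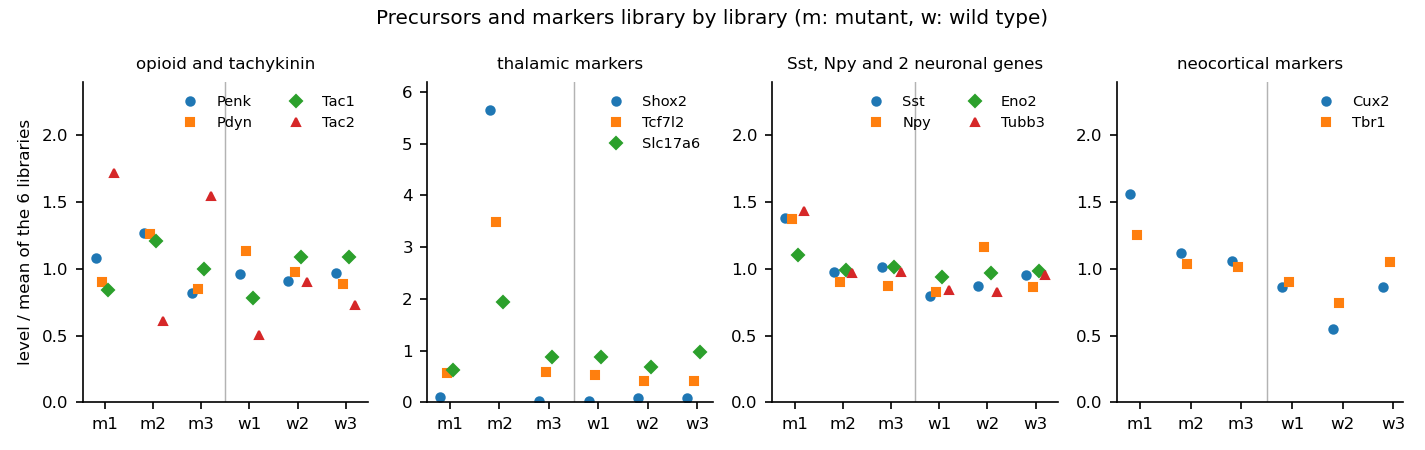
Levels of precursors and markers in each library, divided by the gene's mean over the 6 libraries, with mutant replicates m1 to m3 left of wild-type replicates w1 to w3; the second panel has a taller axis. Penk, Pdyn and Tac1 are highest in m2, as are Shox2, Tcf7l2 and Slc17a6, 3 of the 5 of 11 thalamic markers that are highest there, and Sst, Npy, Eno2 and Tubb3 are highest in m1.

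Between libraries of the same genotype, 8 of the 10 precursors varied more than the median gene of like abundance. The within-group SD on the log2 scale was 0.32 for Npy, where genes within 0.5 log2 units of its mean had a median of 0.12. It was 0.25 for Vip against 0.12, 0.21 for Sst against 0.09, 0.27 for Tac1 against 0.17, and 0.62 for Tac2 against 0.36. Cck, at 0.10 against 0.08, was close to its peers, and Cort and Crh were at or under theirs, with 0.30 against 0.35 and 0.29 against 0.31.

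For the 3 most abundant precursors, the most similar profiles over the 6 libraries were taken from 206 tested genes of the lists. Sst was most like Eno2, neuron-specific enolase (Pearson r = 0.993), and Tubb3, a neuronal tubulin (r = 0.978). Npy had a close profile to Nr2f2, a transcription factor of caudally derived interneurons (r = 0.934). Cck was nearest to Fos, an immediate early gene (r = 0.908), and Enpep, a peptidase that cuts angiotensins (r = 0.866). These are descriptions over 6 libraries that differ in depth before normalization and in markers of neighbouring tissue. For Sst, Npy and Cck, 3.16%, 0.75% and 0.3% of all tested genes were above 0.9. Tubb3 measured 5018, 3396 and 3411 in mutant replicates 1 to 3, against 2951, 2899 and 3325 in wild-type replicates 1 to 3, which places mutant replicate 1 highest as it was for Sst.

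Correction of each library for transcript GC content and length moved every precursor upward. All 10 log2 changes were then above 0, against 51.5% of tested genes, and their median was 0.19, against 0.01 for all genes. Sst stood at 0.43, Npy at 0.28, Vip at 0.19, Tac1 at 0.19, Cort at 0.42 and Tac2 at 0.81. Penk was at 0.17, while Crh at 0.07, Cck at 0.04 and Pdyn at 0.0005 were near 0. No precursor passed the adjusted threshold after this correction either.

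**Figure D4:**
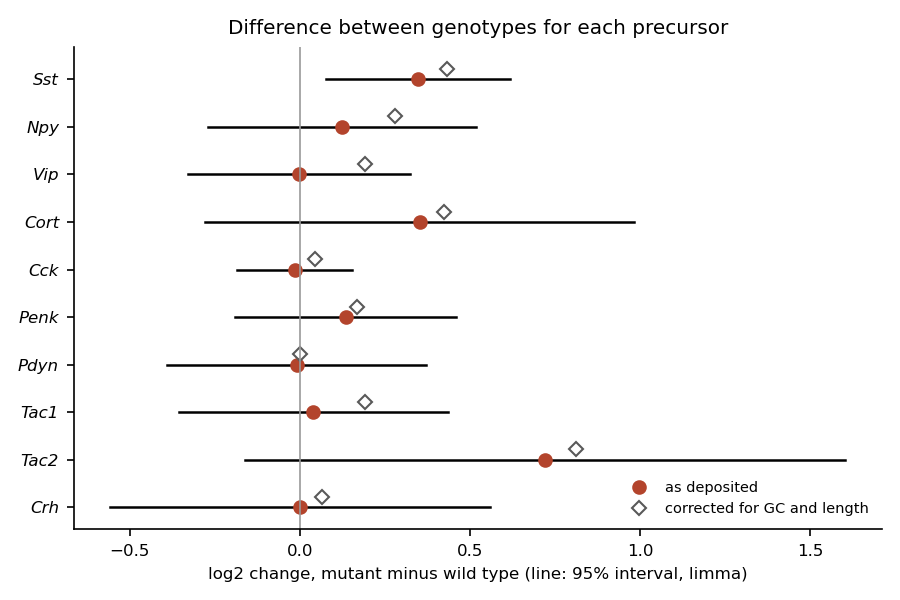
Log2 change, mutant minus wild type, for each precursor; filled circles with lines are limma estimates with 95% intervals, and open diamonds are estimates after correction for transcript GC content and length. The Sst interval, 0.08 to 0.62, lies above 0, and the other 9 intervals span 0.

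The receptors of these peptides couple to G proteins, and somatostatin, neuropeptide Y and opioid receptors inhibit adenylyl cyclase while VIP receptors activate it. Of 24 listed names, 23 were in the table and 17 passed the filter. Of the 17, 14 had a log2 change above 0, against 46.8% of all tested genes, with a median of 0.10. None passed the adjusted threshold, and 2 had an unadjusted p under 0.05, both higher in the mutants, against 9.01% of all tested genes. That count was 0 without mutant replicate 1 or without wild-type replicate 2, 1 without wild-type replicate 1, 3 without mutant replicate 3 and 4 without mutant replicate 2, and the median was 0.19 without wild-type replicate 3. Cckbr, the brain cholecystokinin receptor, measured 197, 163 and 146 in mutant replicates 1 to 3, against 127, 104 and 146 in wild-type replicates 1 to 3, with a log2 change of 0.42 ± 0.16 (SE). Sstr2, a somatostatin receptor, measured 155, 109 and 124 in the mutants, against 85.0, 104 and 107 in wild type, with a change of 0.38 ± 0.17. In both genes the mutant libraries lay above the wild-type libraries, by a narrow margin, and the adjusted p was 0.200 for Cckbr and 0.254 for Sstr2 in limma.

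In 4 of the 17 tested receptors, Cckbr and Sstr2 among them, every mutant library lay above every wild-type library, against 12.3% of all tested genes. In 0 of the 17 every mutant library lay below, against 12%. The 4 also included the somatostatin receptor Sstr4, at 389 ± 14.5 in the mutants and 346 ± 18.6 in wild type. The VIP and PACAP receptor Vipr1 was another, at 370 ± 37.4 in the mutants and 317 ± 5.65 in wild type (SD, n = 3 each). The other somatostatin receptors measured 416 for Sstr1 and 518 for Sstr3 in the mutants, against 400 for Sstr1 and 494 for Sstr3 in wild type. Npy2r, a presynaptic receptor of mossy fibres and Schaffer collaterals, averaged 1189 ± 191 in the mutants and 1368 ± 99.3 in wild type, with a log2 change of -0.21 ± 0.11 (SE). Npy1r, the postsynaptic type, averaged 616 in the mutants and 587 in wild type, and Npy5r 147 in the mutants and 162 in wild type. For the opioid receptors, the log2 change was 0.46 ± 0.22 (SE) for the mu receptor Oprm1, 0.10 ± 0.12 for the delta receptor Oprd1 and -0.06 ± 0.22 for the kappa receptor Oprk1. The tachykinin receptors Tacr1 and Tacr3 averaged 33.5 and 105 in the mutants and 23.3 and 87.9 in wild type, with overlapping groups. Crhr1, the main brain receptor of Crh, averaged 122 in the mutants and 107 in wild type. Sstr5, Npy4r, Npy6r, Vipr2, Cckar and Tacr2 were under the filter.

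Among 20 genes of peptide processing and dense-core vesicles, 14 had a log2 change above 0, against 46.8% of all tested genes, with a median of 0.12. At an unadjusted p under 0.05, 7 of the 20 were higher in the mutants and 0 were lower, against 9.01% and 9.7% of all tested genes, and no gene passed the adjusted threshold. In 9 genes every mutant library was above every wild-type library, and in 1 gene below, against 12.3% and 12% of all tested genes. The higher count was 6 to 8 when single libraries were left out, and the median was 0.07 without mutant replicate 2. The lower count was 2 without wild-type replicate 1 and 1 without mutant replicate 3. Chromogranin A, encoded by Chga and a core protein of the vesicles, measured 1836, 1675 and 1466 in mutant replicates 1 to 3, against 1362, 1314 and 1272 in wild-type replicates 1 to 3. The groups were well separated, with a log2 change of 0.33 ± 0.09 (SE) and an adjusted p of 0.124 in limma. Vgf, a granin-like precursor induced by neurotrophins, averaged 1464 ± 241 in the mutants and 1123 ± 77.6 in wild type, a change of 0.37 ± 0.11 (SE). Rab3a, a GTPase of secretory and synaptic vesicles, averaged 5832 ± 557 in the mutants and 4793 ± 207 in wild type, and Ptprn2, a vesicle membrane protein, 6973 ± 1093 in the mutants and 5524 ± 84.6 in wild type (SD, n = 3 each).

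The enzymes that cut and trim the precursors, were named for their role after their values were seen. The change was 0.03 ± 0.10 for the convertase Pcsk1 and 0.10 ± 0.06 for the convertase Pcsk2 (SE). It was -0.12 ± 0.07 for carboxypeptidase E (Cpe), which removes the basic residues left after cutting, and -0.02 ± 0.07 for the amidating enzyme Pam. For Qpct, which forms pyroglutamate at peptide ends, it was -0.22 ± 0.11, with every mutant library below every wild-type library. After correction for GC content and length the change of Qpct was -0.07. Some vesicle genes of the same list, likewise named after their values were seen, also had small or negative changes. These were 0.08 for Scg2, 0.01 for Scg5, -0.06 for Cadps, -0.21 for Cadps2 and -0.09 for Syt4. Pcsk1n, of the same list and also named after its values were seen, had a change of 0.46 ± 0.15 (SE). Whether enzymes and vesicle proteins differ in their change was not tested.

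Peptidases and a binding protein that end the peptides' action formed a list of 10. Of these, 4 had a log2 change above 0, against 46.8% of all tested genes. At an unadjusted p under 0.05 in limma, 0 were higher and 0 lower, against 9.01% and 9.7% of all tested genes. Ace, angiotensin-converting enzyme, measured 265, 177 and 167 in the mutants, against 783, 144 and 399.8 in wild type, high in wild-type replicates 1 and 3, the libraries rich in choroid plexus markers. Dpp10, a peptidase relative without catalytic activity that binds potassium channels, averaged 2163 in the mutants and 1855 in wild type. The endothelin-converting enzyme Ece1 averaged 684 in the mutants and 620 in wild type, and the peptidase nardilysin (Nrd1) 2084 in the mutants and 1955 in wild type.

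**Figure D5:**
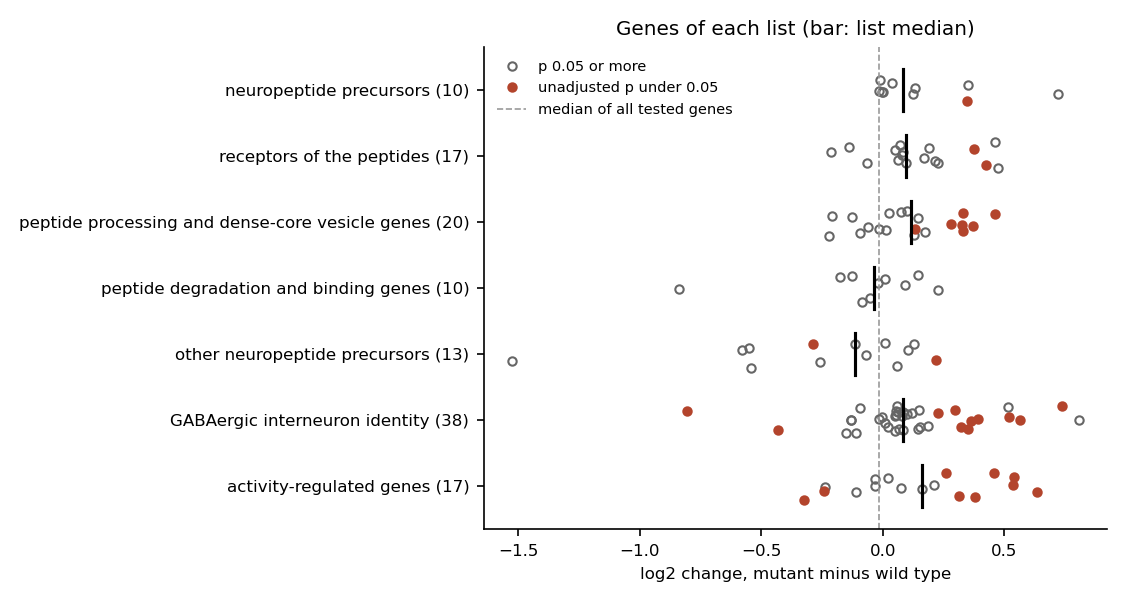
Log2 change, mutant minus wild type, of every tested gene in each list (number tested in brackets), with filled points for an unadjusted limma p under 0.05, black bars for list medians and a dashed line at the median of all tested genes. The medians are 0.08 for the precursors, 0.10 for their receptors, 0.12 for processing and vesicle genes and 0.08 for interneuron genes. That of other neuropeptide precursors is -0.12, and that of the general neuronal markers, not drawn here, is 0.11.

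Of 37 other neuropeptide precursors in the table, 13 passed the filter. Of the 13, 5 had a log2 change above 0, against 46.8% of all tested genes. The median of the 13 was -0.12 (-0.28 without mutant replicate 3 and -0.19 without wild-type replicate 2). At an unadjusted limma p under 0.05, 1 was lower in the mutants and 1 higher, against 9.7% and 9.01% of all tested genes. The counts were 0 lower and 0 higher without mutant replicate 1, and 2 lower and 0 higher without mutant replicate 3. Nts, the precursor of neurotensin, was the 1 lower gene. It measured 210, 220.4 and 256 in mutant replicates 1 to 3, against 263, 279.7 and 294 in wild-type replicates 1 to 3. Its log2 change was -0.29 ± 0.11 (SE, adjusted p 0.203 in limma) and -0.03 after correction for GC content and length. Agt, the angiotensin precursor of astrocytes, was higher at an unadjusted p under 0.05, with 326 ± 23.6 in the mutants and 280 ± 10.8 in wild type (SD, n = 3 each). Calca, the precursor of calcitonin gene-related peptide, averaged 13.4 in the mutants and 20.4 in wild type. Pomc, the precursor of beta-endorphin, measured 8.33, 6.09 and 8.49 in the mutants, against 11.8, 8.29 and 125 in wild type. Wild-type replicate 3 stood far above the other 5 libraries. The hypothalamic precursors Avp and Ucn were at 0 in all 6 libraries.

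General neuronal markers and genes of interneuron identity and of neuronal activity give the setting of the precursors. Of 8 tested general neuronal markers, 7 had a log2 change above 0, against 46.8% of all tested genes, with a median of 0.11. In 5 of the 8 every mutant library lay above every wild-type library, against 12.3% of all tested genes. In 0 of the 8 every mutant library lay below, against 12%. Of 38 tested interneuron genes, 29 had a log2 change above 0, against 46.8% of all tested genes, with a median of 0.08. At an unadjusted p under 0.05, 9 of these stood higher in the mutants and 2 stood lower, against 9.01% and 9.7% of all tested genes, and none passed the adjusted threshold. The higher count was 4 without mutant replicate 1 and 5 without wild-type replicate 3, and the median was 0.13 without mutant replicate 2 and 0.13 without wild-type replicate 2. Nos1, neuronal nitric oxide synthase, averaged 2221 ± 225 in the mutants and 1690 ± 139 in wild type, and Kcnc1, a potassium channel of fast-spiking cells, 1176 ± 103 in the mutants and 921 ± 68.3 in wild type. Slc32a1, the vesicular GABA transporter, averaged 370 ± 27.0 in the mutants and 296 ± 22.6 in wild type, and Synpr, synaptoporin, 2103 ± 399 in the mutants and 2804 ± 246 in wild type (SD, n = 3 each). Synpr is also abundant in granule cells.

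Of 17 activity-regulated genes, 11 had a log2 change above 0, with a median of 0.16, and 7 were higher and 2 lower in the mutants at an unadjusted p under 0.05, against 9.01% and 9.7% of all tested genes. The median was 0.075 without mutant replicate 2, 0.097 without wild-type replicate 2 and 0.10 without wild-type replicate 3. Without wild-type replicate 2 the counts were 4 higher and 0 lower, and without mutant replicate 1 they were 6 higher and 0 lower. The log2 change was 0.63 for Egr1, 0.54 for Npas4, 0.54 for Nr4a2 and 0.38 for Per1, all transcription regulators, and none passed the adjusted threshold in limma. Fos, whose profile was nearest to that of Cck, measured 293, 390.2 and 371 in mutant replicates 1 to 3, against 306, 344 and 429 in wild-type replicates 1 to 3, with overlapping groups.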

How the data were processed

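The labels' protocols describe depletion of ribosomal RNA from 2000 ng of total RNA, stranded libraries and single-end sequencing with 4 libraries a lane. The submitters' processing notes name GSNAP, DESeq2 and the mm9 build; versions and counting options were not found in any source used. The main table deposited by the authors has 35477 transcript rows, each with a normalized signal per library, and with a p-value and a score from the authors. Every deposited signal value is a whole multiple of its library's step (100% lie within 0.01 of a step), with a peak at 42 steps, so the signal was taken as base coverage over a size factor. This unit is an inference from the values. The number of per-sample columns left unused is 0. Enrichment tables, which name none of the 10 genes, were not used.

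Coverage was divided by 42, and for each gene the transcript row with the highest mean was kept. Genes averaging 10 or more across the 6 libraries entered the test on a log2(value + 1) scale, which understates changes of low genes. The test was two-sided limma 3.58.1 (R 4.3.3) with a mean-variance trend. It was run on simulated data in which every gene had the same spread, so that check could not cover the trend. P-values were adjusted by Benjamini-Hochberg across the 15717 tested genes, with 0.05 as the threshold. Groups came from the genotype label and replicate numbers from accession order. Transcript GC content and length were read from GENCODE for GRCm38 and found for 98.2% of tested genes. The precursors and lists were chosen with earlier results of these data known. Named genes were the 10 precursors, receptors, up to 4 genes per list with the smallest p, 2 most similar genes for the 3 most abundant precursors, up to 3 most abundant genes per marker list, and Ptchd1; others are marked where named. Some genes that this rule selects are not reported here.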

Additional observations from a re-analysis of the deposited data

How the results depend on the processing

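No paired analysis was possible because replicate numbers follow accession order and the titles carry a different number for each library. No precursor passed the adjusted threshold under any of the 16 alternatives. The count of tested genes past it, 1 as reported, was 0 with quantile normalization, 0 without the variance trend, 3 after GC and length correction, 805 with library quality weights, and 0 to 44 when single libraries were left out (44 without mutant replicate 3, 37 without wild-type replicate 2). The number of precursors with groups that do not overlap was 1, and 1 to 3 when single libraries were left out (3 without mutant replicate 2, 2 without mutant replicate 3 and 2 without wild-type replicate 2). Smaller groups separate more easily, and the share over all genes was not computed with libraries left out. The higher counts are therefore not a result about precursors. The number at an unadjusted p under 0.05 was 1, and 0 to 2 over the alternatives. The median log2 change of the 10 ranged from 0.04 to 0.19, and from 0.06 to 0.15 when single libraries were left out. Sst (0.19 to 0.44), Cort (0.17 to 0.49) and Tac2 (0.38 to 1.17) had a positive change under each alternative that tested them. Changes near 0 switched sign. With single libraries left out the range was -0.0859 to 0.2761 for Npy, -0.1413 to 0.1456 for Vip, -0.058 to 0.046 for Cck, -0.0099 to 0.3074 for Penk, -0.1845 to 0.0974 for Pdyn, -0.1201 to 0.1674 for Tac1 and -0.1369 to 0.1689 for Crh. Vip was 0.0052 with median-of-ratios rescaling, 0.025 with quantile normalization and 0.1905 after GC and length correction, under which Cck was 0.0443 and Pdyn 0.0005. Pdyn was 0.0344 with quantile normalization and 0.1486 with library quality weights. Crh was -0.0005 with a pseudocount of 5 and -0.0776 with library quality weights. With a filter at a mean of 50, Cort, Tac2 and Crh were not tested. The cause of these shifts was not tested. Before normalization, Tac2 held 9.38 to 33.8 read equivalents a library and Cort at most 24.7. The part of depth in their spread was not tested.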
